A study of Mus musculus with 9 samples.

Results

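CXCL12-abundant reticular (CAR) cells are stromal cells of the bone marrow, and the 4 arrays described here give their transcriptome in mice that received saline alone. The arrays are those titled as PBS treated CAR cells, biological replicates 1 to 4, out of 9 arrays in the series. The other 5, from mice given granulocyte colony-stimulating factor, were not used, and no treatment was compared. The mice had the genotype Cxcl12+/gfp, in which green fluorescent protein is read from 1 Cxcl12 allele. They were given phosphate-buffered saline for 5 days. Lineage-negative cells bright for CXCL12-GFP were sorted, so the Cxcl12 level is in part set by the gate. The effect of the gfp allele on that level was not tested. The sources used here do not give the age or sex of the mice, or whether an array held 1 animal or a pool. The source names of these samples speak of pre-B colonies of wildtype littermates, which the titles, genotype and protocol contradict, and the titles were followed.

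CAR cells form a network with long processes through the marrow, and blood stem cells and early B cells lie in contact with them. They are known as a main source of the chemokine CXCL12, which holds stem cells and B cell precursors in the marrow, and of stem cell factor (Kitl) and interleukin-7. They overlap with leptin receptor positive stroma, express adipogenic transcription factors and can give rise to adipocytes and osteoblasts.

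Levels are log2 of the deposited intensity, 1 value per gene, for 19938 genes with exactly 1 symbol. Means are given ± SD over the arrays (n = 4), and the percentile is the share of genes at or below that mean. The "top 10%" is a level at or above the 90th percentile, which began at 7.78 and held 1994 genes (10% of all). The intensity of a probe set depends on its probes as well as on the RNA, so a rank places an intensity and is no count of molecules. For 999 genes with several probe sets, the highest and the lowest probe set of a gene differed by a median of 0.73 (quartiles 0.26 and 1.60) on the log2 scale. In sorted populations, fewer cells of a type and less RNA per cell cannot be told apart.

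The 4 arrays gave a similar order of genes, with replicate 3 apart from the others. Correlations between arrays, across genes and as a description, were 0.965 to 0.981 among replicates 1, 2 and 4 or between replicates 3 and 4, and 0.945 and 0.948 for replicate 3 with replicates 1 and 2. The interquartile range of levels was 2.11 in replicate 3 and 2.46 to 2.85 in the others. In replicate 3, 1067 genes lay over 1 log2 unit from the mean of the other 3 arrays, against 266 to 408 in the other arrays. Of the 25 genes highest by mean, 21 to 24 were also among the 25 highest of each array, and 18 genes were in that set on all 4 arrays. Values without replicate 3 are given for some of the results below, which are not always those that it moves most.

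The given markers of CAR cells were all within the top 1% of genes. Cxcl12, whose GFP reporter was used for the sort, was at 12.40, 12.47, 12.21 and 12.33 in replicates 1 to 4. Its mean was 12.35 ± 0.11 (rank 9 of 19938). Cxcl12 lay at the 99.95th or 99.96th percentile on every array. Lepr, the leptin receptor, was at 11.31, 11.50, 11.58 and 11.83 (mean 11.55 ± 0.21, rank 35). Vcam1, the adhesion molecule bound by integrin VLA-4, was at 11.53, 11.50, 11.44 and 11.69 (mean 11.54 ± 0.11, rank 36). These markers were high on all arrays, and replicate 3 held the lowest Cxcl12 and Vcam1 values but not the lowest Lepr value. Ebf3, a transcription factor that maintains the CAR cell state, was at 11.17, 11.19, 11.14 and 11.13. Its SD of 0.03 over the arrays was among the 10 smallest in the top 10%, genes with predicted or clone names left out. Kitl, which signals to the receptor Kit on stem cells, was at 11.05, 10.98, 10.62 and 10.64 (mean 10.82 ± 0.22, rank 94). Its level was higher on replicates 1 and 2 than on replicates 3 and 4, although its percentile stayed between 99.41 and 99.55 on every array.

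**Figure D1:**
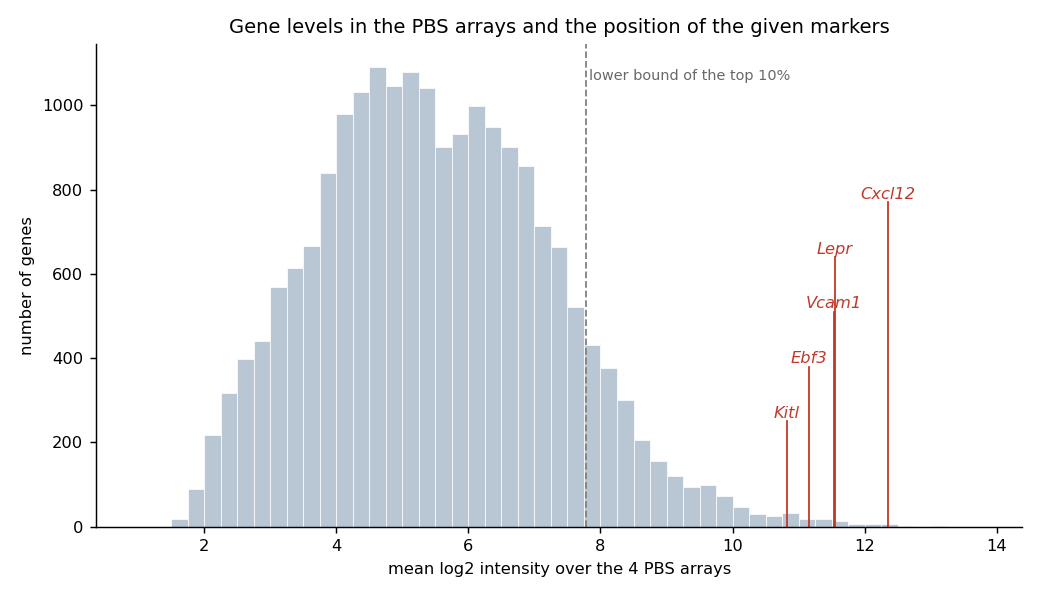
Histogram of the mean log2 intensity of 19938 genes over the 4 PBS arrays (x axis) with the number of genes per bin (y axis). Vertical lines, whose heights only keep the names apart, place the 5 given markers, from Kitl at 10.82 to Cxcl12 at 12.35, all to the right of the dashed line at 7.78 where the top 10% begins.

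The stretches before the RefSeq start sites of Cxcl12, Kitl and Ebf3 are shown because these are the given markers with a single start in the promoter table. They are the 200 bases before the start in assembly GRCm38.p6, 5′ to 3′ on the gene's strand. Capitals mark GGGCGG (or CCGCCC on the other strand), TATAAA (both strands searched) and CCCNNGGG, which reads the same on both strands. Cxcl12 lies at chr6:117168335-117168534 (plus strand), Kitl at chr10:100015621-100015820 (plus strand) and Ebf3 at chr7:137314446-137314645 (minus strand).
Cxcl12: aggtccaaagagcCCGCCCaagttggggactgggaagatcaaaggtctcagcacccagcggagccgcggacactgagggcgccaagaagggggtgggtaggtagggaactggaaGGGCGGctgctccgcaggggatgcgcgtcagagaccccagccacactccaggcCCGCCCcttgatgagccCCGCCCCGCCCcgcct
Kitl: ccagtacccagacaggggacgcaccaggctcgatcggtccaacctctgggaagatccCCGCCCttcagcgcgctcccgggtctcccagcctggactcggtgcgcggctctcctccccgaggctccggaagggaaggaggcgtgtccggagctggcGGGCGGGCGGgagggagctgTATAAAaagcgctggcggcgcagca
Ebf3: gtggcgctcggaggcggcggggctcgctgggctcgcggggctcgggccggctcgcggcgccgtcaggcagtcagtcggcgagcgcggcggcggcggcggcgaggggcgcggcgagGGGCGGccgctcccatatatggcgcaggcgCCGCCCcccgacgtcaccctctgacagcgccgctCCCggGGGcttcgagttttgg

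Cxcl12 held 5 matches to GGGCGG, some overlapping, Kitl 3 and Ebf3 2. TATAAA occurred once, in Kitl, beginning 25 bases before the start, and CCCNNGGG once, in Ebf3. Over 32851 such stretches in the table, 31.0% held GGGCGG, 9.96% TATAAA and 9.91% CCCNNGGG. A match describes letters and is no binding site.

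Further markers of CAR cells were at a similar height. Of 31 measured, 27 were in the top 10% and 20 in the top 1%, with a median level of 10.91 (5.38 over all genes). The lists were chosen with earlier results of these data known. This count, and the contrast with lists of other cell types below, are therefore descriptions. Igfbp5, a binding protein of insulin-like growth factors, was at 12.56, 12.62, 12.37 and 12.50 (mean 12.52 ± 0.11, rank 4). Serping1, the inhibitor of complement C1, was at 12.36, 12.41, 12.45 and 12.60 (mean 12.46 ± 0.10, rank 5). Both were even across arrays. Igfbp4 was at 12.70 and 12.66 in replicates 1 and 2 and at 11.57 and 11.75 in replicates 3 and 4. Haptoglobin (Hp), which binds free haemoglobin, showed the same split, at 12.57 and 12.54 against 11.62 and 11.94. Both genes were thus higher in replicates 1 and 2 than in replicates 3 and 4, a split that no label names. The share of all genes with such a split was not counted, here or for the other genes described this way. Correlations across genes paired the arrays like this only in part. Replicates 1 and 2 were closest to each other (0.981), and replicate 3 was closest to replicate 4 (0.965, against 0.945 and 0.948). Replicate 4, however, was at 0.969 with replicates 1 and 2. The 4 further markers outside the top 10%, named after their values were seen, were Nt5e (CD73, 6.71), the growth factor Ptn (5.81), the angiotensin receptor Agtr1a (5.69) and Sparcl1 (4.99).

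Markers of other cells of the marrow were lower as lists than those of CAR cells, and the neutrophil list was the highest of them, with a median of 7.08. The 8 mature osteoblast and osteocyte markers came next, with a median of 6.41 (69.50th percentile), 4 in the highest 25% and 1, Ibsp, in the top 1%. None of 17 B cell, 14 erythroid, 14 T and NK cell, 9 megakaryocyte, 18 chondrocyte or 11 skin or synovial fibroblast markers reached the top 10%. Endothelial markers had 1 of 22 there (endoglin, Eng, at 7.83, also on the list of further CAR markers) and a median level of 4.93. Eng was in the top 10% on 2 of the 4 arrays, and without replicate 2 none of the 22 was. Macrophage markers had 2 of 19, Vcam1, which is also a given CAR marker, and the lysozyme Lyz2 (9.92 ± 0.66). Lyz2 was highest in replicate 2 (10.71), as was the mean of the neutrophil list. The receptor Mertk was at 6.58 and the lysosomal glycoprotein Cd68 at 6.81. The pan-leukocyte gene Ptprc (CD45) was at 6.54 ± 0.26, the 72.12th percentile. Smooth muscle and pericyte markers had 2 of 16, the myosin light chain Myl9 (9.70 ± 0.37) and the receptor Notch3 (7.97 ± 0.25). Erythroid markers were led by Car1, a carbonic anhydrase, at 8.68, 7.23, 4.67 and 8.90, low only in replicate 3. Without replicate 3, 1 of the 14 erythroid markers was in the top 10%. The B cell list had a median of 4.46 (30.21st percentile), and 12 of its 17 genes lay below the median gene. Its highest members included Vpreb3 at 6.08 ± 0.56 and the surrogate light chain genes Vpreb1 at 5.86 ± 0.76 and Igll1 at 5.71 ± 0.61. The B cell receptor component Cd79b was at 5.59 ± 0.10, and Cd3e of the T cell receptor complex at 5.23 ± 0.20. Von Willebrand factor (Vwf) of endothelium and platelets was at 5.74 ± 0.31, the chondrocyte factor Sox9 at 6.72 ± 0.22, the pericyte gene Rgs5 at 6.48 ± 0.18 and podoplanin (Pdpn) of fibroblastic reticular cells at 5.01 ± 0.42.

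Of 18 neutrophil markers, 8 were in the top 10% by mean and 0 were below the median gene. On all 4 arrays, 5 were in the top 10%. S100a8, the partner of S100a9 in the calprotectin of granulocytes, was at 11.68, 12.65, 11.31 and 10.99 (rank 28). S100a9 was at 11.53, 12.24, 11.05 and 11.21 (rank 37). The granule protein Ngp was at 9.21, 10.54, 9.79 and 10.16. All 3 were highest in replicate 2, as were 16 of the 18 members, against 3487 of all 19938 genes. The mean of the list was 7.34, 8.76, 7.84 and 7.48 in replicates 1 to 4, and 17 of the 18 members ranged over at least 1 log2 unit between arrays, against 17.3% of all genes. The part of such cells in the levels of other genes was not tested.

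**Figure D2:**
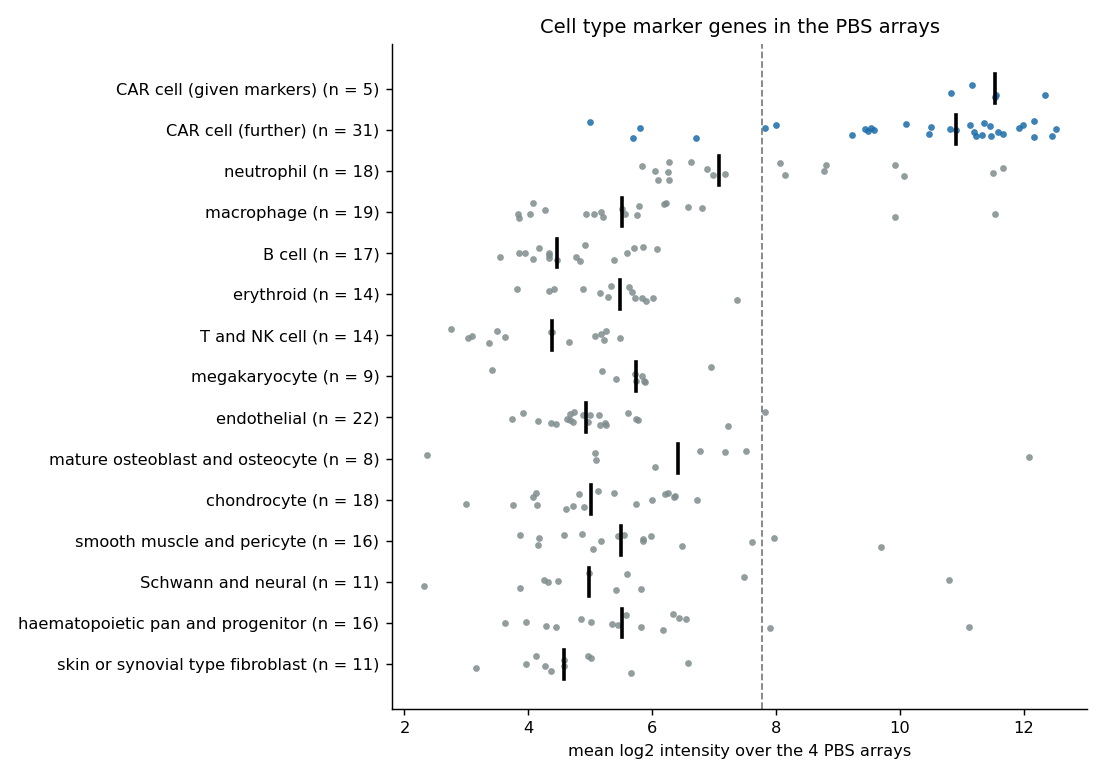
Mean log2 intensity over the 4 PBS arrays (x axis) of each marker gene, by cell type list (y axis, with the number of genes measured). Each point is a gene, jittered vertically, the black bar is the list's median, and the dashed line at 7.78 is the start of the top 10%. The CAR cell lists have medians of 11.54 and 10.91, the neutrophil list 7.08 and the mature osteoblast list 6.41, with all other lists at 5.74 or lower.

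The genes that support B cell and stem cell development spanned most of the range of intensities. Of 23 measured, 12 were in the top 10% (52.2%, against 10% of all genes), 6 were in the top 1% and 3 lay below the median gene. Without replicate 3, 13 were in the top 10%. Several of these genes also define CAR cells, so their height is in part given by the sort.

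Gas6, a ligand of the TAM receptors, was at 11.66, 11.83, 11.45 and 11.71 (mean 11.66 ± 0.16). Csf1, the growth factor of macrophages, was at 10.84, 10.86, 10.77 and 10.77 (mean 10.81 ± 0.05). Fgf7, a growth factor for epithelial cells, was at 10.44, 10.46, 10.96 and 11.06. Csf1 hardly varied, whereas Fgf7 was higher in replicates 3 and 4 than in replicates 1 and 2. Bmp6 was at 9.99 ± 0.24 and Bmp4 at 9.59 ± 0.21, both bone morphogenetic proteins. Angpt1, which activates Tie2, was at 9.57, 9.39, 9.48 and 9.47 (mean 9.48 ± 0.07). Igf1, an insulin-like growth factor, was at 9.16 ± 0.26.

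Of the cytokines that act on lymphoid cells, Il7, Flt3l and Il15 lay around the border of the top 10%, whereas Tslp and Tnfsf13b were far below it. Il7, required by B cell progenitors, was at 8.14, 8.24, 7.75 and 7.86 (SD 0.23, rank 1628), and its percentile was 90.25 or higher on each array. Flt3l, the ligand of Flt3 on early progenitors, was at 8.21, 7.87, 7.55 and 7.40 (mean 7.76 ± 0.36). Il15, a cytokine for natural killer and memory T cells, had a mean of 7.66 ± 0.66, with its highest value of 8.42 in replicate 2 and its lowest of 7.06 in replicate 3. Flt3l and Il15 were higher in replicates 1 and 2, and their means fell just below the border. Tnfsf11 (RANKL), the osteoclast differentiation factor, was at 7.88, 7.90, 7.05 and 7.25, with the same split. The galectin Lgals1 ran from 6.74 in replicate 3 to 9.09 in replicate 2, with a mean of 8.13, or 8.60 without replicate 3.

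The Notch ligand Jag1 was at 7.17 ± 0.09, and Dll1, another Notch ligand, at 4.47 ± 0.16. Tslp, a relative of interleukin-7, was at 4.52 ± 0.15 (31.71st percentile). Dll1, Tslp and the cytokine Lif (4.86 ± 0.40) were the 3 members below the median gene. Il6 was at 6.58, 5.10, 5.47 and 5.56, high only in replicate 1. Tnfsf13b (BAFF), a survival factor of mature B cells, was at 5.46 ± 0.20, and the B cell chemokine Cxcl13 at 5.52 ± 0.31. The deposited values carry no detection call, so such levels were not read as absence.

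**Figure D3:**
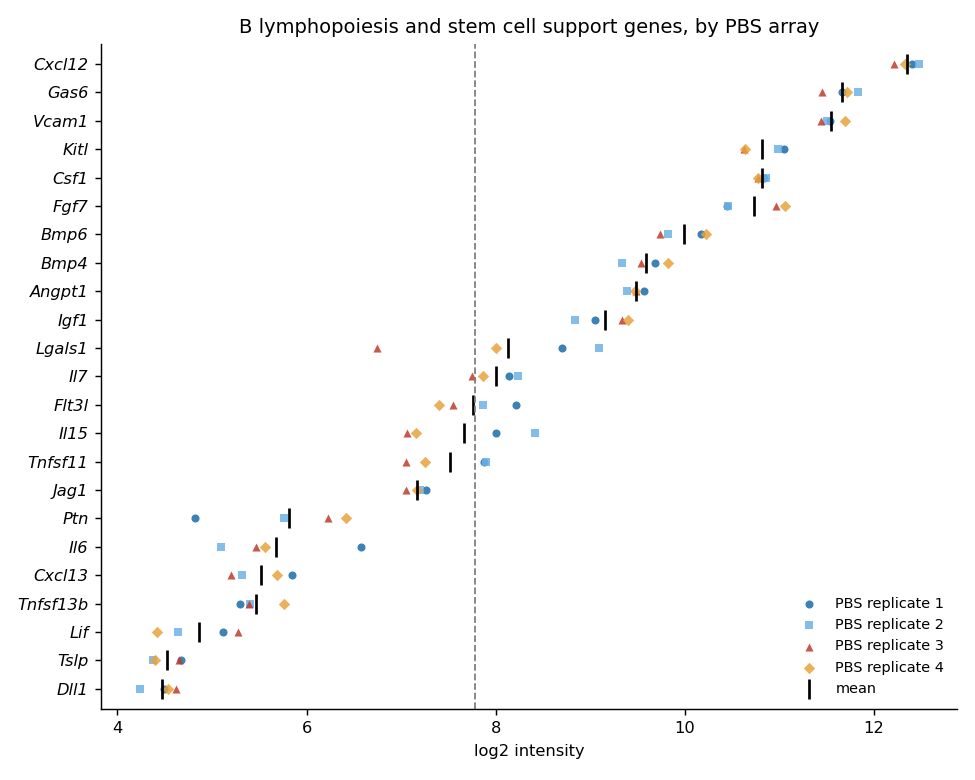
Log2 intensity (x axis) of 23 genes for B lymphopoiesis and stem cell support (y axis), in order of their mean. Symbols are the 4 PBS arrays, black ticks the means, and the dashed line at 7.78 the start of the top 10%. Members run from Cxcl12 at 12.35 to Dll1 at 4.47, and Lgals1 and Il15 show the wide spread between arrays that Csf1 and Jag1 lack.

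Secreted factors were split between a few very high genes and many low ones. Of 441 measured, 80 were in the top 10% (18.1%) and 34 in the top 1%, whereas 263 lay below the median gene. The symbol patterns of this class also took genes whose products act mainly inside the cell, such as clade B serpins and the collagen chaperone Serpinh1. These are included in the counts. Of the 100 highest genes of all, 26 were secreted factors, a class that held 441 of all 19938 genes. Of the 26, 6 were among the 12 highest genes, namely Igfbp5, Serping1, B2m, Cxcl12, Igfbp4 and Hp. B2m, the light chain of class I MHC that is also shed, was at 12.08, 12.28, 12.62 and 12.63 (mean 12.40 ± 0.27). It was higher in replicates 3 and 4, opposite to Igfbp4 and Hp. Lipoprotein lipase (Lpl) was at 11.96, 11.99, 11.83 and 11.92 (mean 11.92 ± 0.07), and adiponectin (Adipoq), a hormone of fat cells, at 11.14 ± 0.30. Apolipoprotein E (Apoe) was at 12.15, 12.06, 10.80 and 11.29, and clusterin (Clu), an extracellular chaperone, at 11.42, 11.24, 10.46 and 11.14. Both were lowest in replicate 3, without which their means were 11.83 (Apoe) and 11.27 (Clu), against 11.58 and 11.07 with it. Islr (Meflin), a marker of mesenchymal stem cells, was at 11.44 ± 0.23.

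Among chemokines, 9 of 38 were in the top 10% (23.7%). Cxcl14 was at 11.19, 11.21, 11.08 and 11.33 (mean 11.20 ± 0.10, rank 60), as even over the arrays as Cxcl12. Cxcl9, a ligand of CXCR3, was at 10.21, 11.15, 9.96 and 10.31 (mean 10.41 ± 0.52), highest in replicate 2. Ccl2, which draws monocytes, was at 9.37 ± 0.58. Ccl19, a ligand of CCR7, was at 10.26, 10.26, 8.33 and 9.34. Its mean was 9.55, or 9.95 without replicate 3. Its 5 probe sets gave means of 9.41 to 9.55. Of the 9 chemokines in the top 10%, 6 ranged over at least 1 log2 unit, against 20.1% of all genes in the top 10%.

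Ligands and antagonists of the BMP and TGF-beta family had 8 of 49 members in the top 10% (16.3%), and 4 of the 5 highest were antagonists or binding proteins. Chrdl1, which binds and blocks BMPs, was at 11.29, 11.38, 11.26 and 11.39 (mean 11.33 ± 0.06). Grem1, another BMP antagonist and a marker of skeletal progenitors, was at 10.42, 10.54, 10.34 and 10.57 (mean 10.47 ± 0.11). Both were even across arrays. The follistatin-like protein Fstl1 was at 11.21 ± 0.15. Follistatin (Fst), which binds activin, was at 10.20, 10.32, 9.04 and 9.38, higher in replicates 1 and 2.

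Of 36 Wnt ligands, R-spondins and antagonists, 5 were in the top 10% (13.9%), and none of these was a Wnt ligand. Sfrp4, a decoy for Wnt proteins, was at 11.35, 11.69, 11.43 and 11.88 (mean 11.59 ± 0.24, rank 31). The related Sfrp1 was at 8.61 ± 0.17 and the Wnt inhibitor Wif1 at 7.90 ± 0.34. Without replicate 3, Wif1 was at 7.82 and left the top 10%. The R-spondins, which raise Wnt signalling, were represented by Rspo2 at 9.42, 8.87, 8.49 and 8.12 and Rspo3 at 8.47, 8.55, 8.59 and 8.68. Rspo2 spread over 1.30 log2 units and Rspo3 over 0.21.

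IGF, FGF, EGF, PDGF, VEGF, neurotrophic and guidance ligands had 10 of 93 members in the top 10% (10.8%), near the share of all genes. Besides Igfbp5 and Igfbp4, Igfbp7 was at 11.66 ± 0.32 and Igfbp3 at 10.87, 11.36, 10.10 and 11.13. Esm1, a secreted proteoglycan also called endocan, was at 11.26, 11.15, 11.42 and 11.62 (mean 11.36 ± 0.20). Of haematopoietic cytokines and interleukins, 11 of 76 were in the top 10% (14.5%) and 47 below the median gene. Il1rn, the antagonist of the interleukin-1 receptor, was at 9.96, 9.86, 9.85 and 9.66. It was even over the arrays, with a mean of 9.83 ± 0.13. The list of adipokines, complement, acute phase and carrier proteins had 38 of 150 in the top 10% (25.3%) and 17 in the top 1%. Serpina3n, a serine protease inhibitor of the acute phase, was at 10.73, 10.80, 10.72 and 11.46, high in replicate 4 alone.

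Matrix genes had the largest share in the top 10% among the 4 classes, 69 of 263 (26.2%). Sparc, a collagen-binding glycoprotein of bone, was at 12.37, 12.39, 12.33 and 12.59 (mean 12.42 ± 0.12, rank 6). Biglycan (Bgn), a small proteoglycan, was at 12.34, 12.44, 12.26 and 12.44 (mean 12.37 ± 0.09, rank 8). Bone sialoprotein (Ibsp), which nucleates mineral, was at 11.93, 11.90, 12.11 and 12.40 (mean 12.08 ± 0.23, rank 15). All 3 varied little, and Sparc and Ibsp were highest in replicate 4.

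Collagens did not stand out in the same way. Of 44 chains measured, 6 were in the top 10% (13.6%) and 0 in the top 1%. Col8a1 was at 9.90, 9.54, 10.06 and 10.14 (mean 9.91 ± 0.27). Col1a2 was at 8.97 ± 0.23 and Col1a1, its partner in collagen I, at 6.72, 6.73, 6.74 and 6.95 (mean 6.78 ± 0.11). The collagen VI chains Col6a1 and Col6a2 were at 8.93 ± 0.08 and 8.08 ± 0.23, and Col12a1 was at 8.11 ± 0.25.

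Glycoproteins and elastic fibre genes had 29 of 91 in the top 10% (31.9%). Tenascin C (Tnc) was at 11.70, 11.40, 11.29 and 11.53, and fibulin-5 (Fbln5), an organiser of elastic fibres, at 11.46 ± 0.12. Matrix Gla protein (Mgp), an inhibitor of calcification, was at 11.49, 12.15, 10.69 and 11.38, and its range of 1.46 was the widest among the 20 highest matrix genes. Ccn2, a matricellular protein induced by TGF-beta, was at 11.38, 10.74, 10.55 and 10.08, and its relative Ccn1 at 10.80 ± 0.20. Ecm1, extracellular matrix protein 1, was at 10.73 ± 0.13 and Ltbp2, of the family that binds latent TGF-beta, at 10.01 ± 0.21.

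Proteoglycans had 12 of 44 in the top 10% (27.3%), with Prelp, which anchors basement membranes, at 11.49 ± 0.20. The small leucine-rich proteoglycans osteoglycin (Ogn) and decorin (Dcn) were at 10.17 ± 0.34 and 10.07 ± 0.33. Pcolce, which enhances the trimming of procollagen and is counted with the glycoproteins, was at 11.64, 11.36, 11.08 and 11.19 (mean 11.32 ± 0.25). Proteases, inhibitors and collagen-modifying enzymes had 22 of 84 (26.2%). Mmp13, a collagenase, was at 10.15, 10.02, 9.93 and 10.50 (mean 10.15 ± 0.25). The membrane protease Mmp14 was at 9.63 ± 0.13, lysyl oxidase (Lox), which crosslinks collagen, at 9.85 ± 0.25, and fibroblast activation protein (Fap) at 9.58 ± 0.10. Timp2, an inhibitor of these metalloproteinases, was at 9.39 ± 0.19.

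**Figure D4:**
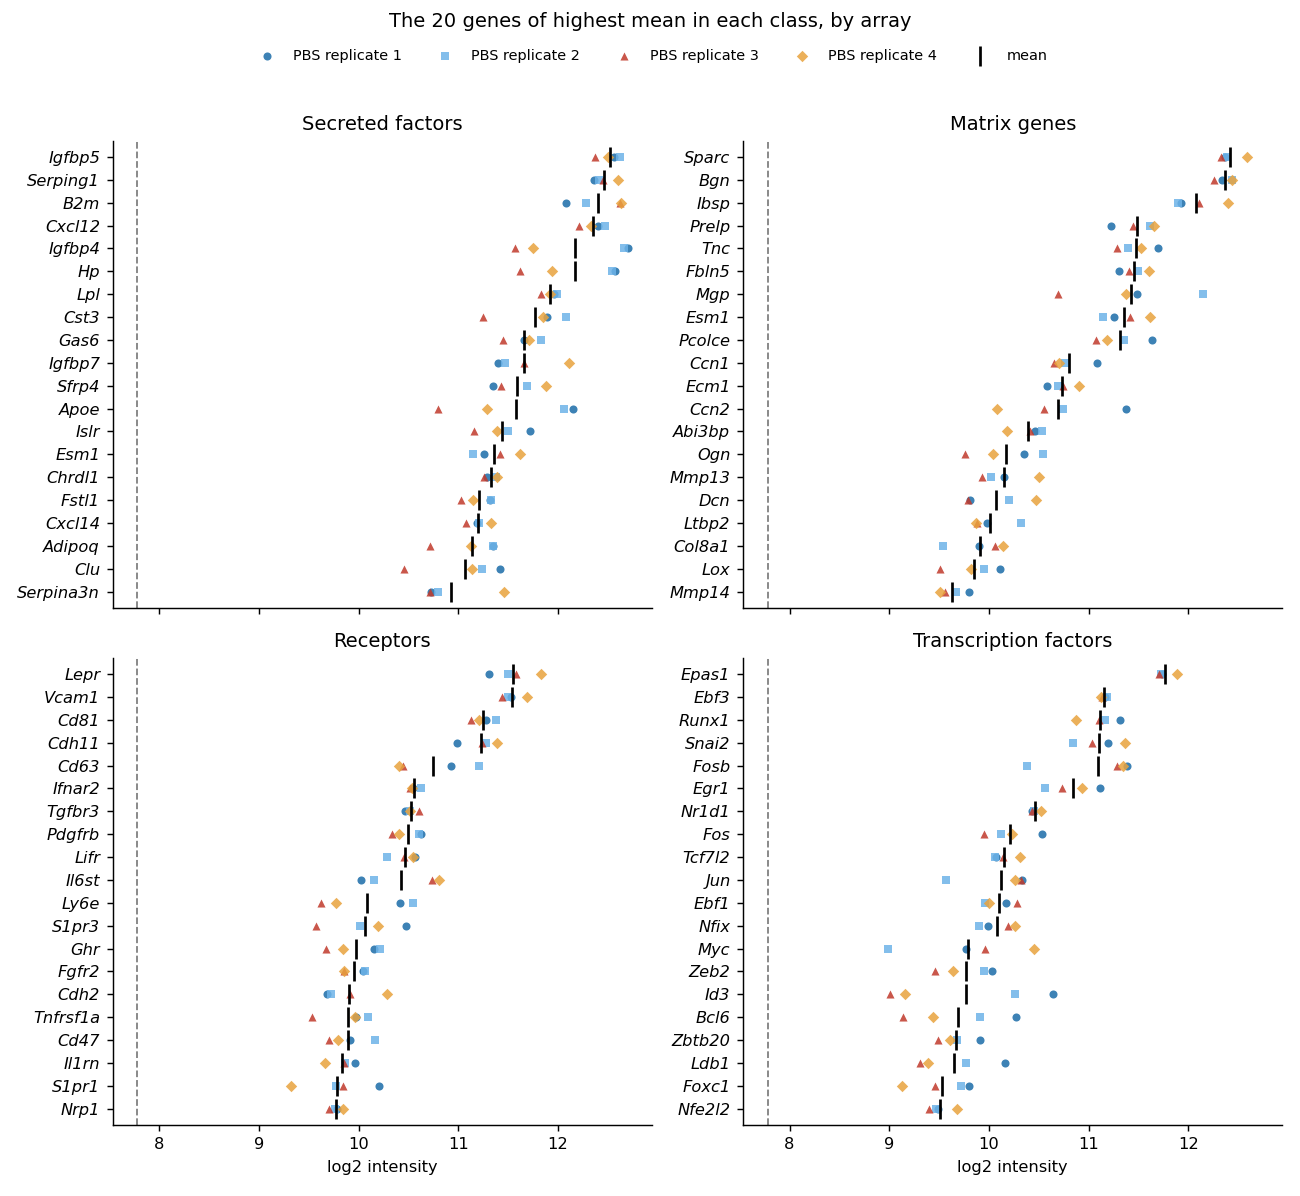
Log2 intensity (x axis) of the 20 genes of highest mean in each of 4 classes (y axis), with a symbol for each of the 4 PBS arrays, a black tick at the mean and a dashed line at 7.78 where the top 10% begins. The secreted panel runs from Igfbp5 at 12.52 to Serpina3n at 10.93, the matrix panel from Sparc at 12.42 to Mmp14 at 9.63, the receptor panel from Lepr at 11.55 to Nrp1 at 9.77 and the transcription factor panel from Epas1 at 11.77 to Nfe2l2 at 9.51.

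Receptors had 80 of 578 members in the top 10% (13.8%) and 12 in the top 1%. Lepr led the class, followed by adhesion molecules. Cd81, a tetraspanin, was at 11.25 ± 0.10 and Cdh11, a mesenchymal cadherin, at 11.23 ± 0.17. Cd63, another tetraspanin, was at 10.75 ± 0.39, and Cd47, which keeps phagocytes from engulfing a cell, at 9.89 ± 0.20. Cdh2 (N-cadherin) was at 9.90 ± 0.28 and Nrp1, a co-receptor for semaphorins and VEGF, at 9.78, 9.76, 9.70 and 9.84. Of 141 integrins and other adhesion, guidance, lipoprotein and pattern recognition receptors, 30 were in the top 10% (21.3%).

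Among cytokine and chemokine receptors, 17 of 100 were in the top 10% (17.0%). The patterns for this list also took Il1rn and Tnfrsf11b, which are secreted. The interferon receptor chain Ifnar2 was at 10.55, 10.63, 10.52 and 10.54 (mean 10.56 ± 0.04). Lifr, the receptor of leukaemia inhibitory factor, was at 10.57, 10.29, 10.46 and 10.55 (mean 10.47 ± 0.13). Il6st (gp130), the chain shared by receptors of the IL-6 family, was at 10.03, 10.16, 10.74 and 10.81. Lifr did not separate the arrays, whereas Il6st was higher in replicates 3 and 4. The growth hormone receptor Ghr was at 9.97 ± 0.26 and the TNF receptor Tnfrsf1a at 9.89 ± 0.25.

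Among receptor tyrosine kinases and other growth factor receptors, 8 of 62 were in the top 10% (12.9%). Pdgfrb was at 10.63, 10.61, 10.34 and 10.41 (mean 10.50 ± 0.15) and Pdgfra at 9.36, 9.21, 8.98 and 9.37 (mean 9.23 ± 0.18). Both PDGF receptors mark mesenchymal stroma, and both were lowest in replicate 3. Fgfr2 was at 9.95 ± 0.12, the EGF receptor (Egfr) at 9.66 ± 0.12 and the insulin receptor (Insr) at 8.47 ± 0.18. A second Insr probe set was at 6.90, and with a mean over probe sets Insr left the top 10%.

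Receptors of the TGF-beta, BMP, Wnt, Notch and Hedgehog pathways had 13 of 43 in the top 10% (30.2%), with a median at the 77.12th percentile. Tgfbr3 (betaglycan), which presents TGF-beta and binds inhibin, was at 10.47, 10.52, 10.61 and 10.52 (mean 10.53 ± 0.06). Bmpr2 was at 8.35, 8.63, 9.43 and 9.53, higher in replicates 3 and 4. The Hedgehog receptor Ptch1 was at 8.70 ± 0.07, Neo1, a receptor for netrins and repulsive guidance molecules, at 8.67 ± 0.24, and Notch2 at 8.65 ± 0.12.

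The list of G protein coupled receptors had 12 of 232 in the top 10% (5.17%), fewer than the 10% of all genes. Its patterns also took P2X channels and other proteins such as the receptor partner Ramp2, and 162 of the 232 lay below the median gene. S1pr3 and S1pr1, receptors of sphingosine 1-phosphate, were at 10.07 ± 0.38 and 9.78 ± 0.37. The adhesion receptors Adgrf5 and Adgrl2 were at 9.66 ± 0.16 and 9.64 ± 0.29. The 8 probe sets of Adgrl2 ranged from 3.96 to 9.64, so its level depends on the probe set.

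Transcription factors had 100 of 565 members in the top 10% (17.7%), with a median at the 62.43rd percentile. Epas1 (HIF-2 alpha), which responds to low oxygen, was at 11.74, 11.73, 11.71 and 11.89 (mean 11.77 ± 0.09, rank 22). It was the highest of the class and even over the arrays. Runx1, known for its role in blood stem cells, was at 11.32, 11.17, 11.11 and 10.87 (mean 11.12 ± 0.19, rank 67). Runx1 is also on the list of blood cell genes, of whose 16 members only Runx1 and Laptm5 (7.90 ± 0.71) were in the top 10%. Laptm5 was there on 1 array, replicate 2, and left the top 10% without it. Snai2 (Slug), a mesenchymal repressor, was at 11.20, 10.84, 11.04 and 11.37 (mean 11.11 ± 0.22).

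Of the stromal, forkhead, homeobox and mesenchymal factors, 38 of 289 were in the top 10% (13.1%). Ebf1, the relative of Ebf3 known from B cells, ran from 9.96 in replicate 2 to 10.28 in replicate 3 (mean 10.10 ± 0.15). Foxc1, which is needed for the CAR cell niche, was at 9.80, 9.72, 9.46 and 9.13 (mean 9.53 ± 0.30). Both lay in the top 10% on all arrays. The Wnt effector Tcf7l2 was at 10.15 ± 0.12, Nfix at 10.08 ± 0.17 and Zeb2, a repressor of epithelial genes, at 9.77 ± 0.27. Id3, an inhibitor of basic helix-loop-helix factors, was at 10.64, 10.26, 9.01 and 9.16, higher in replicates 1 and 2. Bcl6, a repressor of the zinc finger class counted with the signal-responsive factors, was at 10.27, 9.91, 9.14 and 9.44, with the same split.

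Nuclear receptors and adipogenic factors had 15 of 73 in the top 10% (20.5%). Nr1d1 (Rev-erb alpha), a repressor of the circadian clock, was at 10.43, 10.45, 10.43 and 10.52 (mean 10.46 ± 0.04). Cebpa was at 9.56, 9.39, 9.28 and 9.32 (mean 9.38 ± 0.12) and Pparg at 9.19, 9.27, 8.87 and 8.72 (mean 9.01 ± 0.26), the factors that drive fat cell differentiation. The adipocyte lineage list had 8 of 26 in the top 10% (30.8%), and 7 lay below the median gene. It was led by Lpl, Apoe and Adipoq, each also on the list of further CAR markers. Of the 26, 10 ranged over at least 1 log2 unit (38.5%, against 17.3% of all genes). The osteoblast lineage list had 8 of 20 in the top 10% (40.0%), and 5 lay below the median gene. It was led by Sparc, Ibsp, Cdh11 (also a further CAR marker), Mmp13 and the homeobox factor Dlx5 (8.98 ± 0.27). Sp7 (osterix), the osteoblast factor, was at 7.20, 7.19, 6.93 and 7.40 and thus below the top 10% on each array. Phex, a protease of osteoblasts and osteocytes, was at 7.51 ± 0.33.

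Signal-responsive factors had 48 of 205 in the top 10% (23.4%). Immediate early genes, which cells switch on within minutes of a stimulus, had 15 of 23 in the top 10% (65.2%) and 6 in the top 1%. Fosb was at 11.39, 10.38, 11.29 and 11.35, and Jun at 10.33, 9.57, 10.32 and 10.26. Myc was at 9.77, 8.99, 9.96 and 10.45. All 3 were lowest in replicate 2, as were 16 of the 23 genes, against 5064 of all 19938 genes and 393 of the 1994 in the top 10%. The list mean was 8.68, 8.21, 8.52 and 8.85 in replicates 1 to 4. Egr1 was at 10.84 ± 0.24, Fos at 10.21 ± 0.24, and the feedback regulators Zfp36 and Dusp1, which destabilise mRNAs and inactivate MAP kinases, at 10.94 ± 0.35 and 10.83 ± 0.36. Replicate 2 was also the array with the highest neutrophil list mean, and a link between these values was not tested.

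The spread between arrays was narrow for most CAR cell genes and wide for particular groups. The median SD over 4 arrays was 0.28 for all genes and for the top 10%, and 0.23 for the top 1%, where most CAR markers lay. It was 0.11 for the given markers and 0.18 for the further CAR markers. A range of at least 1 log2 unit, a 2-fold difference, was found for 3454 genes (17.3%), for 400 of the 1994 in the top 10% (20.1%) and for 33 of the 200 in the top 1% (16.5%). It was found for 0 of the 5 given markers and 3 of the 31 further markers. Without replicate 3, the count of genes with a range of at least 1 log2 unit was 1352, where a range over 3 arrays is smaller by construction, and the median SD was 0.22.

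Ribosomal protein genes were high and uneven. Of 56 measured, 45 were in the top 10% (80.4%) and 36 ranged over at least 1 log2 unit (64.3%). Their mean was 9.83, 9.77, 8.56 and 9.07 in replicates 1 to 4, and 50 of the 56 were lowest in replicate 3, against 5549 of all 19938 genes and 1005 of the top 10%. Their median SD was 0.63, or 0.41 without replicate 3, and 45 were in the top 10% either way. Rplp1 was at 11.51, 11.32, 8.51 and 9.46, and Rps28 at 11.68, 11.63, 9.05 and 9.42. By contrast, Rpl10 was at 11.44, 11.38, 11.08 and 11.38, and Rps6 was at 10.68, 10.91, 11.03 and 11.21. These genes have many near-identical pseudogene copies, so the copy behind a probe set is uncertain.

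Of the 15 genes of largest SD in the highest 25%, 13 were lowest in replicate 3, as were 2617 of all 4985 genes of that band. The 15 genes were chosen for their SD, so this count is a description. They included Mrps12 of the mitochondrial ribosome (9.06, 8.79, 5.01 and 6.59), the splicing protein Snrpd2 (8.76, 8.71, 5.26 and 6.87) and the respiratory chain subunits Ndufa1 (8.42, 8.77, 5.31 and 7.74) and Atp5e (9.49, 9.55, 6.46 and 7.27). The largest SD was that of Ppbp, a platelet chemokine, at 8.37, 4.63, 8.98 and 5.82. Pf4, another platelet chemokine, was at 7.31, 3.87, 6.21 and 6.14. Both were lowest in replicate 2, and the mean of the 9 megakaryocyte markers was 5.86, 4.86, 6.06 and 5.45. The granule peptide Camp of neutrophils was at 9.30, 10.70, 7.36 and 7.75, highest in replicate 2.

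At the other end, the 10 named genes of smallest SD in the top 10% had SDs of 0.01 to 0.04. Besides Ebf3 they held Atp2a2, the calcium pump of the endoplasmic reticulum (9.65, 9.65, 9.66 and 9.66), the splicing factor Srsf2 (9.63 ± 0.02), the E-protein Tcf12 (8.23 ± 0.03), the dNTP hydrolase Samhd1 (11.02 ± 0.03) and the stress factor Ddit3 (8.17 ± 0.04). These genes were chosen for their SD, which is therefore a description.

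**Figure D5:**
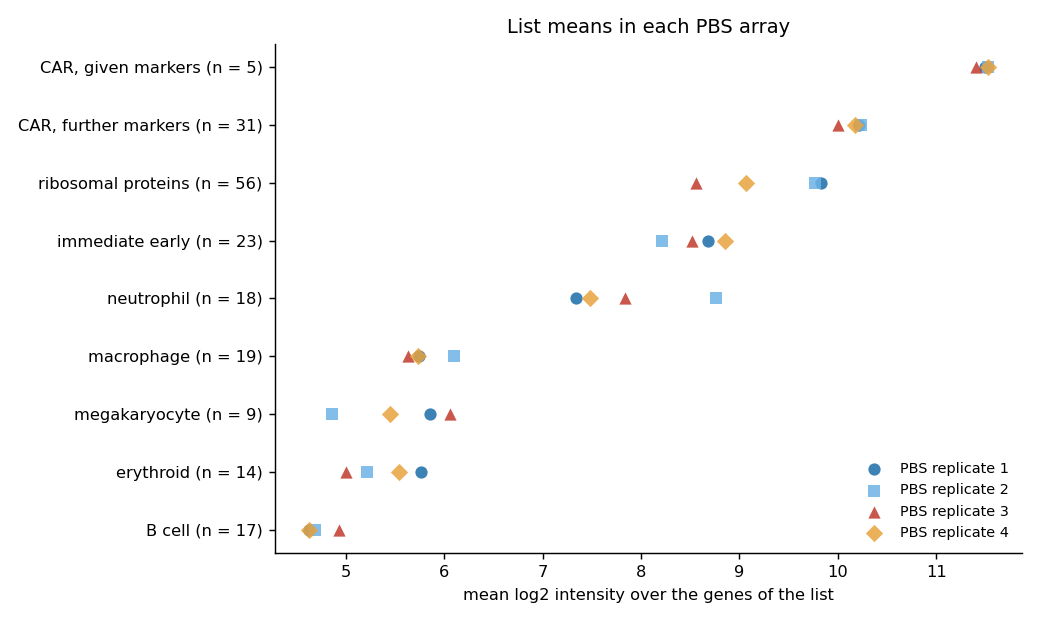
Mean log2 intensity over the genes of a list (x axis) in each of the 4 PBS arrays (symbols), for 9 lists (y axis, with the number of genes measured). The CAR marker means stay within 11.40 to 11.53 (given) and reach at most 10.23 (further), whereas ribosomal proteins run from 8.56 in replicate 3 to 9.83 in replicate 1 and neutrophil markers from 7.34 in replicate 1 to 8.76 in replicate 2.

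The highest values of the table were not all of CAR cell genes, and 1 clone name among them was passed over. Rank 1 was Baiap2l1, an adaptor of the actin cytoskeleton, at 13.20 ± 0.27, but its 3 probe sets had means of 13.20, 10.71 and 4.12, so no level can be assigned to the gene. The non-coding RNAs Rn7sk and Malat1 were at 12.65 ± 0.16 and 12.04 ± 0.25, and beta-actin (Actb) at 12.58 ± 0.20. The mitochondrial COX2 was at 12.12 ± 0.04. Of the other genes among the 25 highest named, Ifitm3, an antiviral membrane protein, was at 12.10 ± 0.15, Gdpd2, a phosphodiesterase that marks CAR cells, at 11.99 ± 0.14, and Cyp1b1, a cytochrome P450, at 11.87 ± 0.07. The remaining ones were Rps29 (11.83), the chaperone Hspa8 (11.79), cystatin C (Cst3, 11.77), S100a11 (11.73), the secreted glutathione peroxidase Gpx3 (11.71) and Gas6.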

How the data were processed

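Gene expression was measured on Affymetrix Mouse Gene 1.0 ST arrays. Per the labels' protocols, sorted cells went into TRIzol LS and RNA was amplified and labelled with NuGEN kits. Per the processing notes of the submitters, the authors ran RMA in Expression Console to obtain each deposited intensity. Versions and the genome build are not given in the sources used here. RMA normalises arrays to each other, so differences in total RNA cannot be seen. The values were linear, and log2 was taken here, with Python 3.11.15 (pandas 2.3.3, numpy 2.4.6).

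Of 35553 probe sets, the platform table gave 21789 exactly 1 symbol, 1621 several and listed none for 12143. The 21789 covered 19938 genes, each represented by its probe set of highest mean over the 4 PBS arrays. Genes with predicted or clone names (1332) were ranked and not named. With 1 group, no test was run and no p-value is given. The number of arrays limits the precision, and the titles call them biological replicates without identifying the animals. The part, members and lists were chosen with earlier results of these data known. Named were the given markers, the 25 highest genes, the 20 highest per class, the 5 highest per list, the support list, the 4 highest per cell type list, and the 15 widest and 10 tightest genes (largest SD in the highest 25%, smallest in the top 10%). Classes were fixed as symbol patterns and omit factors outside them. The steps were tested on simulated data.

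Alternatives were each array left out, other normalisations, means over probe sets, other references and thresholds and, added after seeing the data, replicates 1 and 2 or 3 and 4 alone. Promoter sequences are from RefSeq (GRCm38.p6), where 4 of the 5 given markers matched.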

Additional observations from a re-analysis of the deposited data

Results flagged for a closer look

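In 17 of 226 named genes, 1 array stood apart from the other 3 by Dixon's ratio of the gap to the whole range, past its 95% critical value. Chance flags about 1 in 20 groups of 4, and 5.46% of all genes were flagged. None of 44 lists was flagged by its mean per array.

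Replicate 3 was lowest for 5 genes: Gdpd2 at 11.78 (12.04 to 12.06 in the others), Rpl10 at 11.08, Rpl21 at 10.87, the myelin protein gene Pmp22 at 10.22 (10.98 to 11.02) and Myl9 at 9.15 (9.87 to 9.93). Replicate 2 was lowest for Fosb at 10.38 (11.29 to 11.39), Jun at 9.57 (10.26 to 10.33) and Wif1 at 7.39. Replicate 2 was highest for the ubiquitin ligase Huwe1 at 8.63, the endothelial scavenger receptor Stab2 at 6.12 and Nkg7, a granule protein of cytotoxic cells, at 7.35 (4.40 to 4.77). Replicate 4 was highest for Serpina3n at 11.46 (10.72 to 10.80), Nr1d1 at 10.52 and Col1a1 at 6.95. Replicate 1 was lowest for Insr at 8.20 and the cyclin Ccna2 at 6.22, and highest for Ermap, an erythroid membrane protein, at 6.42 (5.58 to 5.68).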

How the results depend on the processing

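Class counts in the top 10% moved little when an array was left out: 79 to 82 for secreted factors (80 with all arrays), 69 to 70 for matrix genes (69), 77 for receptors without replicate 1, 2 or 3 and 78 without replicate 4 (80), 97 to 102 for transcription factors (100) and 12 to 14 for the support list (12). At the 75th percentile, receptors had 136 members and transcription factors 203. The count of genes with a range of at least 1 log2 unit was 3454. It was 1352 to 2820 with 1 array left out, lowest without replicate 3, 247 at a range of 2 log2 units and 2107 among genes at or above the median level. Fewer genes or arrays enter these counts by construction. Of 162 named genes in the top 10%, 3 left it without replicate 2 (Atp5e, Laptm5 and Eng), 2 without replicate 3 (Wif1 and Acadm) and 0 without replicate 1 or 4. With replicates 3 and 4 alone, 6 of the 162 named genes left the top 10% (Camp, Ndufc2, Atp5e, Lgals1, Laptm5 and Eng), and 2 (Wif1 and Acadm) left it with replicates 1 and 2 alone. Means over probe sets moved 8 of 226 named levels beyond their SD. With all probe sets as the reference, 145 of 226 percentiles moved beyond theirs. No paired analysis was possible because only the PBS group was used. Low signal has no detection call here, which limits what low levels can show.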

Other observations

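Cell cycle genes had a median of 5.43 (50.93rd percentile), against 5.38 over all genes. Of 18 proliferation genes, 1 was in the top 10%, the replication clamp Pcna at 9.17, 8.81, 8.57 and 9.53, and 9 lay below the median gene. Without replicate 1, 2 were in the top 10%. Mki67, a marker of cycling cells, was at 6.24 ± 0.18 and the cyclin Ccna2 at 6.49 ± 0.18. The mitotic cyclin Ccnb2 was at 6.38, 7.90, 8.33 and 7.52 and was lowest in replicate 1. The conjugating enzyme Ube2c, which acts in mitotic exit, was at 6.98 ± 0.26.

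Transcripts of the Y chromosome were measured on all 4 arrays, with Eif2s3y at 7.77, 7.88, 7.04 and 6.56, Kdm5d at 6.66 ± 0.29 and Uty at 5.75 ± 0.37. Xist, the RNA of the inactive X chromosome, was at 3.57, 3.59, 3.99 and 3.37, the 15.15th percentile. The labels used here do not name the sex of the mice.

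Genes known from nerve-associated cells had a median of 4.98 (41.30th percentile) over 11 genes. The highest were Pmp22 (10.80 ± 0.39) and S100b (9.06, 8.30, 5.77 and 6.77). Of the 11, 1 was in the top 10%, or 2 without replicate 3. The glial factor Sox10 was at 5.59 ± 0.35 and the neurotrophin receptor Ngfr at 5.82 ± 0.16.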
